A study of Mus musculus with 6 samples.

Results

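The kallikrein-related peptidases are secreted serine proteases whose genes stand side by side in a single cluster, on chromosome 7 of the mouse. The genes described here are *Klk10* and 9 others of that cluster, *Klk1*, *Klk1b21*, *Klk6*, *Klk7*, *Klk8*, *Klk9*, *Klk11*, *Klk13* and *Klk14*, taken by symbol from the 56748 genes of the deposited tables. These 10 were among 37 genes with a *Klk* symbol on chromosome 7, spread over 539 kb, of which 26 are protein coding. They were selected on their counts in these same uteri, with those results known, so every difference between the groups below is a description of the members and not a test of them. The data are from whole uteri, 3 of control females and 3 of *Gp130* ecKO females, taken at 1600 h on day 4 of pregnancy, in the hours before embryos attach in mice. The *Gp130* ecKO females carried *Ltf*-iCre with both *Gp130* alleles floxed. The control females are wildtype in the labels, and either floxed without iCre or wildtype in the methods of the study. All were sexually mature females mated with fertile males, of strain C57BL/6 in the labels and C57BL/6J in the methods. *Ltf*-iCre acts where lactotransferrin is made, chiefly the uterine epithelium and also some myeloid cells. The RNA came from the whole organ, stroma and muscle included.

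Kallikreins are made as inactive precursors and cut by other serine proteases or by each other. In the skin they digest the proteins that hold cells together, some of them cleave protease-activated receptors, and *Klk1*, tissue kallikrein, frees kinins from kininogens. Inhibitors of the Spink and serpin families hold them in check. The mouse cluster also holds a large expanded subfamily, the *Klk1b* genes, known for their abundance in the submandibular salivary gland. Gp130 is the shared receptor subunit of the interleukin 6 family, which includes leukemia inhibitory factor, and it signals through STAT3.

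The values are deposited expected counts, the number of reads RSEM assigns to a gene, which need not be whole. CPM relates that count to the library size after TMM scaling. Total counts ranged from 13960748, in control 3, to 25906443, so that 3 counts, used here as the floor, correspond to 0.115 to 0.2 CPM. *Il6st*, the gene for Gp130, had 631, 678 and 452 CPM in the controls against 388, 350 and 362 CPM in *Gp130* ecKO, with no overlap. Its fitted log2 fold change was -0.68, with an adjusted p of 0.12 in edgeR's quasi-likelihood test. The labels do not say whether each library came from a separate female, so p-values measure the spread between these libraries.

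Most of the cluster was silent in these uteri at this depth. Of the 37 *Klk* genes, 21 had 0 counts in all 6 uteri, and 16 had a count in at least 1. Of the 10 members, 4 passed the filter on low counts, *Klk1*, *Klk8*, *Klk10* and *Klk11*. *Klk1b21* had reads in *Gp130* ecKO alone. The other 5, *Klk6*, *Klk7*, *Klk9*, *Klk13* and *Klk14*, were at or under the floor of 3 counts in every uterus. All reads of the cluster together came to 3.8, 4.08 and 4.0 CPM in the controls and to 25.8, 17 and 22.6 CPM in *Gp130* ecKO. The ratio of the means was 5.5, and it lay between 5.0 and 6.11 when any 1 uterus was left out.

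*Klk10* (ENSMUSG00000030693, chr7:43430448-43436793 of GRCm39, plus strand) had the largest fitted fold change of the 4 members that passed the filter. Its human counterpart is known as an epithelial gene that is often lost in tumours, and its protease activity is atypical for the family. It had 2, 11 and 6 counts in controls 1, 2 and 3, and 191, 113 and 204 counts in *Gp130* ecKO 1, 2 and 3. In CPM these were 0.0809, 0.424 and 0.4 against 8.64, 4.35 and 8.46. Every *Gp130* ecKO uterus was far above every control, and *Gp130* ecKO 2 was the lowest of its group. The exact 95% Poisson interval, which covers counting error only, reached 0.871 CPM at most in a control and began at 3.58 CPM at the lowest in *Gp130* ecKO. The means were 0.302 ± 0.19 CPM (SD, n = 3) and 7.15 ± 2.4 CPM (SD, n = 3), a ratio of 23.7, and the fitted log2 fold change was 4.58 with a standard error of 0.58. Leaving out 1 uterus at a time gave 4.11 to 5.10.

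*Klk11* (ENSMUSG00000067616, chr7:43424015-43428690), a trypsin-like member whose gene lies directly before *Klk10* on the same strand, had 12, 14 and 34 counts in the controls and 222, 195 and 187 in *Gp130* ecKO. Its CPM was 0.485, 0.540 and 2.27 in the controls and 10, 7.5 and 7.75 in *Gp130* ecKO. Control 3 stood above the other controls, and all 3 remained below every *Gp130* ecKO uterus. The means were 1.10 ± 1.0 CPM (SD, n = 3) and 8.43 ± 1.4 CPM (SD, n = 3), a ratio of 7.68. The fitted log2 fold change was 3.05 with a standard error of 0.59, and it was 4.02 without control 3.

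*Klk8* (ENSMUSG00000064023, chr7:43446969-43453250), neuropsin, known for cutting adhesion proteins in brain and skin, had a smaller difference. It had 38, 53.83 and 13 counts in the controls and 99.29, 96 and 56 counts in *Gp130* ecKO. The CPM was 1.54, 2.08 and 0.867 in the controls and 4.49, 3.69 and 2.32 in *Gp130* ecKO. The groups did not overlap, but *Gp130* ecKO 3 lay only just above control 2. The fitted log2 fold change was 1.19 with a standard error of 0.44 and ranged from 0.94 to 1.52 with 1 uterus left out.

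*Klk1* (ENSMUSG00000063903, chr7:43874725-43879048), at the far end of the cluster, did not share this pattern. Its counts were 39.93, 23.44 and 6 in the controls and 22.10, 18.46 and 27.30 in *Gp130* ecKO. In CPM these were 1.62, 0.904 and 0.4 against 0.999, 0.710 and 1.13, so all *Gp130* ecKO uteri lay within the range of the controls. The fitted log2 fold change was −0.11 with a standard error of 0.53, and leaving out 1 uterus moved it between −0.42 and 0.47, across 0.

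**Figure D1:**
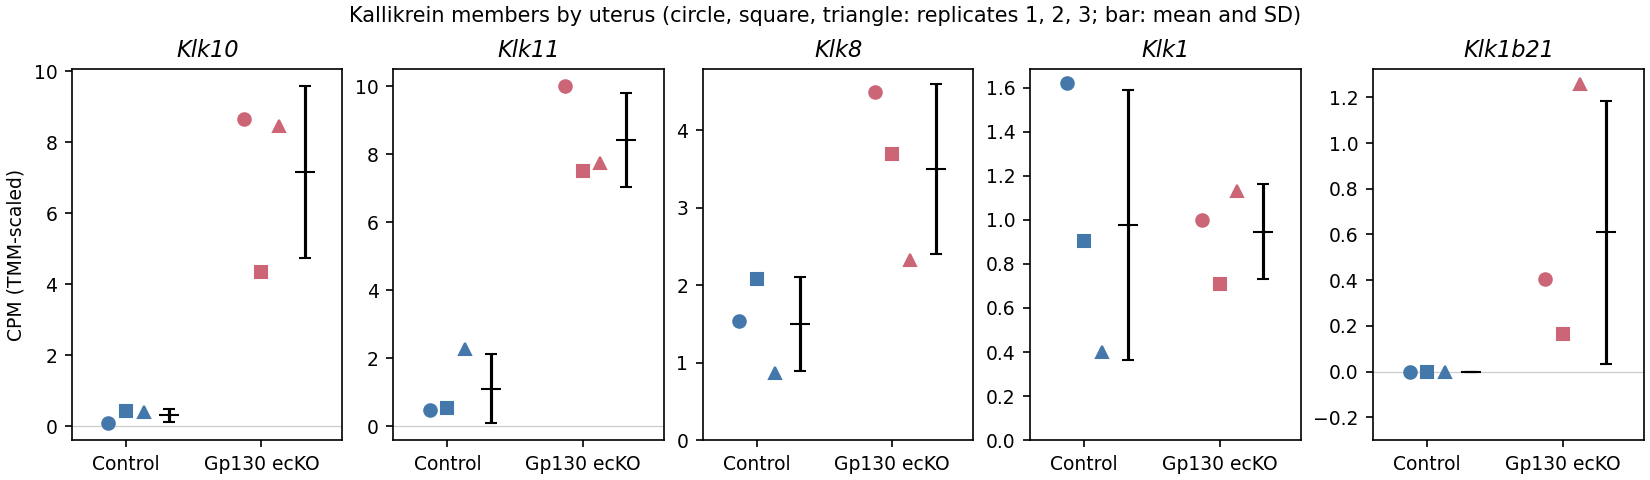
CPM of the 5 members that had more than 3 counts in some uterus, 1 panel each with its own linear axis. Symbols are single uteri (circle, square and triangle for replicates 1, 2 and 3) and the black mark beside them is the mean with the SD of 3 uteri. *Klk10* runs from 0.0809 to 0.424 CPM in the controls and from 4.35 to 8.64 CPM in *Gp130* ecKO, while the groups of *Klk1* overlap.

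Among all 16605 genes tested, edgeR's quasi-likelihood test called 26, or 0.157%, at an adjusted p under 0.05 and more than 2-fold, and 0.126% were called higher in *Gp130* ecKO. Of the members 1 was called, *Klk10*, in the very contrast by which the members were chosen. Its call was kept without control 2 and lost without any 1 of the other 5 uteri. It was also lost with upper quartile scaling, with library totals alone, with a filter of at least 1 CPM in 3 uteri, with the legacy form of the test and with the replicate number as a block. The exact test of edgeR, its likelihood ratio test and DESeq2, which called 7.54%, 7.93% and 9.29% of all tested genes, each called 2, *Klk10* and *Klk11*. Groups that did not overlap, with *Gp130* ecKO higher, made up 15.7% of the tested genes. Among the members, *Klk8*, *Klk10* and *Klk11* of the 4 tested had them, and so did *Klk1b21*, which was too low to be tested.

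The order of the members by level differed between the groups. For levels between genes the deposited TPM was used, which is scaled for gene length. In the controls mean TPM was 2.92 for *Klk8*, 1.66 for *Klk1*, 1.53 for *Klk11* and 0.31 for *Klk10*. *Klk8* was above *Klk1* in each control, but their ranges met, at 1.85 to 3.92 and 0.82 to 2.43 TPM. *Klk11* ran from 0.5 to 3.46 TPM across both and was the highest member in control 3. In *Gp130* ecKO the order was *Klk11* at 10.5, *Klk10* at 7.45, *Klk8* at 6.21, *Klk1* at 1.79 and *Klk1b21* at 0.993 TPM. *Klk11* was above *Klk10* in each *Gp130* ecKO uterus, with 12.44 against 9.24, 10.57 against 5.05 and 8.63 against 8.06 TPM, so the neighbours nearly met in *Gp130* ecKO 3. *Klk10* and *Klk8* changed places between uteri, and *Klk8* was the higher of them in *Gp130* ecKO 2, at 6.17 TPM. The place of *Klk10* rests on the length of 1373 bases in the tables. The newer GENCODE M39 annotation gives it 3332 bases, and by that ratio of 2.43 alone its mean would be 3.07 TPM, below *Klk8*. *Klk1* ran from 1.57 to 1.95 TPM there, below *Klk8* in all 3 uteri and overlapping *Klk1b21*, which reached 1.96 TPM in *Gp130* ecKO 3.

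**Figure D2:**
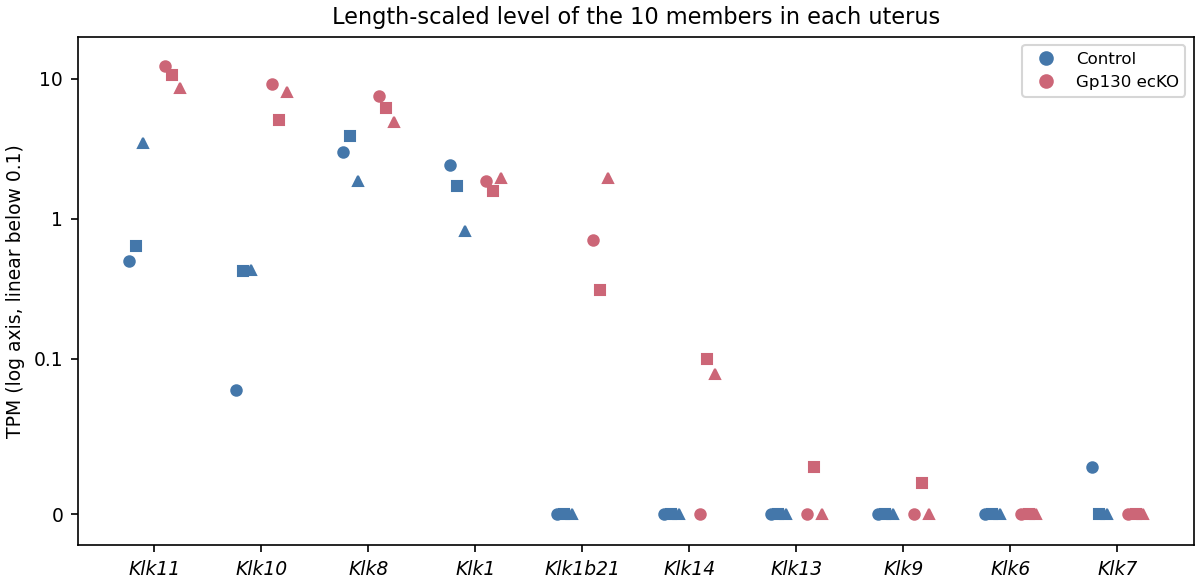
Deposited TPM of the 10 members in each uterus, on a log axis that is linear below 0.1. Blue symbols are controls and red symbols *Gp130* ecKO, with the replicates as circle, square and triangle. *Klk11*, *Klk10* and *Klk8* lead in *Gp130* ecKO, and the 5 members on the right stay at or below 0.1 TPM in all uteri.

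The make-up of the cluster's reads also differed. *Klk10* took 2.13%, 10.4% and 10% of all *Klk* reads in the controls and 33.5%, 25.5% and 37.4% in *Gp130* ecKO. *Klk11* took 12.8% and 13.2% in controls 1 and 2, 56.7% in control 3, and 38.9%, 44.1% and 34.3% in *Gp130* ecKO. *Klk1* went the other way, with 42.5%, 22.1% and 10% in the controls and 3.88%, 4.17% and 5.01% in *Gp130* ecKO. *Klk8* held 40.4%, 50.9% and 21.7% in the controls and 17.4%, 21.7% and 10.3% in *Gp130* ecKO, although its level was higher there. Shares of a total move against each other, so a lower share is not a lower level.

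*Klk1b21* (ENSMUSG00000066516, chr7:43751710-43756013) had 0 counts in all 3 controls and 8.99, 4.28 and 30.50 counts in *Gp130* ecKO, or 0.406, 0.165 and 1.26 CPM. Against the floor of 3 counts per control uterus the level in *Gp130* ecKO was at least 4.2-fold higher. Without *Gp130* ecKO 3, which held most of the reads, the bound was 1.96-fold. Among all 30060 genes with a count in some uterus, 0.469% had 0 in all controls and a count in all *Gp130* ecKO uteri. In the cluster 3 genes had this, *Klk1b21*, *Klk1b11* and *Klk1b5*. *Klk1b11* had 8.61, 2 and 4 counts and *Klk1b5* had 5.32, 7.26 and 1.37 counts in *Gp130* ecKO. *Klk1b24* had 0 counts in the controls and in *Gp130* ecKO 2, and 7.86 and 29.53 counts in *Gp130* ecKO 1 and 3.

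Of the 23 *Klk1b* genes, 8 had a count in a *Gp130* ecKO uterus and 1, *Klk1b27*, in a control. Together they had 1.07, 3.56 and 1.00 counts in the controls and 35.9, 16.54 and 68.7 counts in *Gp130* ecKO. The ratio of mean CPM was 20.7. It was 13.7 without *Gp130* ecKO 3 and 31.0 without control 2, and it rests on at most 3.56 counts per control. The *Klk1b* genes other than *Klk1b27* had 0 counts in the controls. Against 3 counts per control for their sum, the level in *Gp130* ecKO was at least 11.4-fold higher, or 7.58-fold without *Gp130* ecKO 3. These sums and each gene's own count depend on how RSEM divided reads between near-copies, *Klk1* included. The fractional counts became whole when *Klk1* was added to the *Klk1b* genes, at 41, 27 and 7 counts in the controls and 58, 35 and 96 counts in *Gp130* ecKO. This joint level was 1.66, 1.04 and 0.467 CPM in the controls against 2.62, 1.35 and 3.98 CPM in *Gp130* ecKO. Here the groups overlapped, since *Gp130* ecKO 2 lay below control 1, and the ratio of means was 2.51, with 1.88 to 3.51 when 1 uterus was left out. Of the stretches of 75 bases, the read length, in the transcript of *Klk1b21*, 12% also occur in another gene on the same strand, with 94 of them in *Klk1b24* and 39 in *Klk1b27*. In *Klk1b24* the share was 14.4%, and in *Klk1* it was 12.1%, mostly with *Klk1b5*. None of the stretches of *Klk10* or *Klk11* occur in another gene on either strand.

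**Figure D3:**
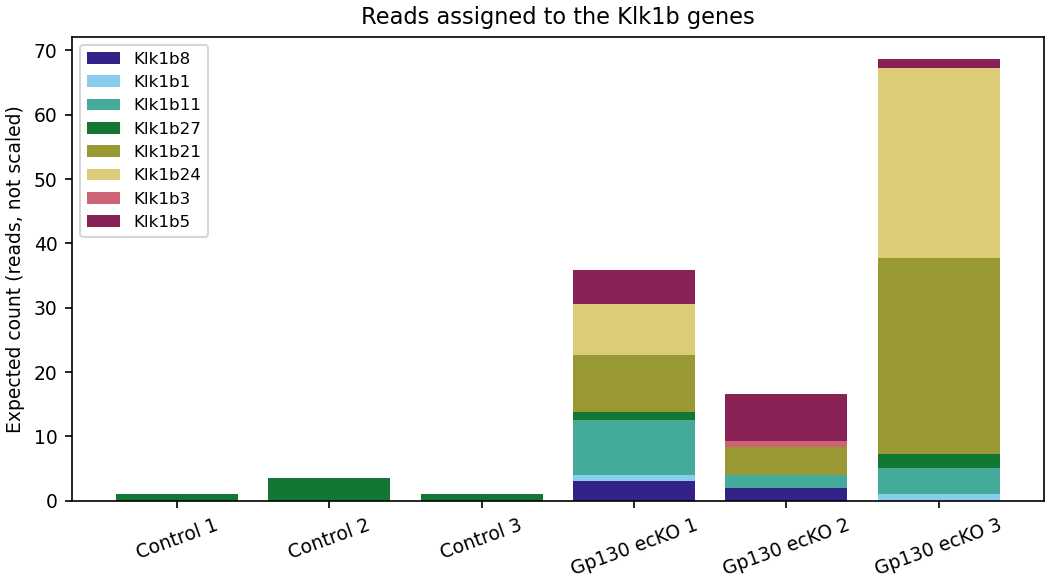
Expected counts of the 8 *Klk1b* genes that had a read, stacked for each uterus and not scaled for depth. The bars of the controls reach at most 3.56 counts, all of *Klk1b27*, and those of *Gp130* ecKO reach 35.9, 16.54 and 68.7 counts.

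Genes of salivary and pancreatic tissue were also compared. Of 6 such markers 2 were tested, and *Prol1*, *Bpifa2* and *Prss1* had 0 counts in all 6 uteri. *Smgc*, a submandibular gene, had 1, 0 and 0 counts in the controls and 0, 1 and 3 counts in *Gp130* ecKO. The summed level, mostly of *Cela1* and *Amy1*, was 4.40 to 6.73 CPM in the controls and 2.25 to 3.48 CPM in *Gp130* ecKO. Their part in the *Klk1b* reads was not tested.

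The 5 remaining members gave no ratio. *Klk6*, known from the nervous system, had 0 counts in all 6 uteri. *Klk7*, the chymotrypsin-like enzyme of the outer skin, had 1 count in control 1 and 0 elsewhere. *Klk9* had 0.41 counts in *Gp130* ecKO 2 and *Klk13* had 1 count in the same uterus. *Klk14*, a trypsin-like activator of other kallikreins, had 0 counts in the controls and 0, 2 and 2 in *Gp130* ecKO. Differences below the floor of 0.115 to 0.2 CPM were not detectable in these genes at this depth. *Klk5*, the usual partner of *Klk7* and *Klk14* in skin, had 0 counts throughout, as had *Klk4*, *Klk12* and *Klk15*.

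The sequences before the start sites of *Klk10*, *Klk11* and *Klk8*, the 3 tested members whose groups did not overlap, are shown because they are the stretches where motifs of the factors behind Gp130 and the steroid receptors were searched. Each is the 250 bases before the start of the gene's canonical GENCODE transcript, read from GRCm39 on the plus strand. They are chr7:43430209-43430458 for *Klk10*, chr7:43425503-43425752 for *Klk11* and chr7:43446719-43446968 for *Klk8*. The *Klk10* window reaches past the gene start given above, and the *Klk11* window lies within the gene span given above. Capitals mark a match to the STAT motif TTCNNNGAA.
Klk10: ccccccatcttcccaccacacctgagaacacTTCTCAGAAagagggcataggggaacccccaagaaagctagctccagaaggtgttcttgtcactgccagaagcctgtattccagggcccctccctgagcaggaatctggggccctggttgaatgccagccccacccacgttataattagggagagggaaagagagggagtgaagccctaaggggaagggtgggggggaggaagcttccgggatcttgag
Klk11: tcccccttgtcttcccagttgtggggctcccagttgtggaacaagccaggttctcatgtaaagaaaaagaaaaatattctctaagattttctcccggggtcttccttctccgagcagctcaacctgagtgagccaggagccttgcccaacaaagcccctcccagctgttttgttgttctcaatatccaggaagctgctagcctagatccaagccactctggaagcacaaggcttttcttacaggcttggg
Klk8: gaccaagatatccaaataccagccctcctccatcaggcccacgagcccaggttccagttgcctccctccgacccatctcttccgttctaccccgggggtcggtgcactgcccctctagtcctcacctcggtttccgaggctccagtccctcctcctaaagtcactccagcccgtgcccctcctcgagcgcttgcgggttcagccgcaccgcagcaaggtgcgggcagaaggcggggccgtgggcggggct
The *Klk10* window held 1 match, TTCTCAGAA, from base −219 to base −211 before the start, which reads as a match on both strands. The same motif was found in 7.70% of the windows before 21770 genes. None of the other members' windows held it. No member's window matched the inverted-repeat estrogen response element (0.0505% of all windows), the inverted-repeat progesterone response element (0.299%), the AP-1 motif TGANTCA (6.17%) or the TATA letters TATAAA (11.9%), with both strands searched. A match is a description of these letters and says nothing of binding.

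The windows of *Klk1b21* and *Klk1b24* are shown because they share a long run of identical bases. Both genes had 0 counts in the controls and their highest counts in *Gp130* ecKO 3. In *Gp130* ecKO 2, *Klk1b21* had 4.28 counts and *Klk1b24* had 0. Their counts also depend on how RSEM divided shared reads. The windows are chr7:43751460-43751709 and chr7:43837410-43837659, on the plus strand of GRCm39, with the longest run of identical bases in capitals.
Klk1b21: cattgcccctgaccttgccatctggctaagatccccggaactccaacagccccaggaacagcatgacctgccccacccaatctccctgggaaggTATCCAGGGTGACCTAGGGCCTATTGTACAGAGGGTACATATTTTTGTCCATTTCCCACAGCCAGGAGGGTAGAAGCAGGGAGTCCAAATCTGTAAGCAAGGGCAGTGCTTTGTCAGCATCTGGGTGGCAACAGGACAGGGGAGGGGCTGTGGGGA
Klk1b24: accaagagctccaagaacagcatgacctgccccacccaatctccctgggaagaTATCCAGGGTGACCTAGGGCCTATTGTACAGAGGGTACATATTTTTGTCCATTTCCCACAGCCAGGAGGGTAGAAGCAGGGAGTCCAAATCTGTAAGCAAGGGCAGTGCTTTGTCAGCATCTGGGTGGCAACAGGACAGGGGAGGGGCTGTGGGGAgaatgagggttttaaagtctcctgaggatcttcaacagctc
The identical run was 156 bases long, from base −156 to base −1 before the annotated start of *Klk1b21* and from base −197 to base −42 before that of *Klk1b24*. A shared run was searched for in this pair only. Similar but not identical stretches also occur in the windows of *Klk1b11* and of *Klk1*, whose groups overlapped.

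Along the chromosome the difference did not extend over the whole region. *Klk11*, *Klk10* and *Klk8* lie within 29.2 kb, with *Klk9*, at or under the floor, between *Klk10* and *Klk8*. The *Klk1b* genes with reads begin 147 kb beyond *Klk8*. Within the cluster and 200 kb on either side, 23 genes other than kallikreins had a count and 11 were tested. edgeR's quasi-likelihood test called 0 of these 11 (against 0.157% of all tested genes), and 3 had an unadjusted p under 0.05 (against 25.0%). DESeq2 called 3 of the 11, 2 higher and 1 lower, which is a larger share than the 9.29% it called of all tested genes. *Ctu1*, a tRNA-modifying enzyme before the cluster, had a mean of 17 CPM in control uteri and 35.1 CPM in *Gp130* ecKO (adjusted p = 0.125, edgeR). *Lrrc4b*, beyond the other end, had 3.26 and 1.28 CPM (adjusted p = 0.0906, edgeR).

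The third was the long noncoding RNA *2310002F09Rik* (chr7:43344633-43447425, minus strand), which runs opposite to the genes from *Klk14* to *Klk8*. It had 6, 1.17 and 0 counts in the controls and 40.71, 16.59 and 13 counts in *Gp130* ecKO. The fitted log2 fold change was 3.19 with a standard error of 0.92 (adjusted p = 0.103, edgeR). Its transcripts share 75-base stretches on the opposite strand with *Klk9* (54.2% of the stretches of *Klk9*), *Klk8* (23.3%) and *Klk14* (18.3%), and none with *Klk10* or *Klk11*. Its fractional counts paired with those of *Klk8* and *Klk9*. In control 2 the counts of *Klk8* and *2310002F09Rik*, 53.83 and 1.17, add to 55.0, in *Gp130* ecKO 1 the counts 99.29 and 40.71 add to 140.0, and in *Gp130* ecKO 2 the 3 genes add to 113.0. Some reads were thus divided between the strands, and whether counting used the strand is not given in the sources used here. For *Klk8* and *Klk9* on one strand and *2310002F09Rik* on the other the counts are uncertain to that degree.

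**Figure D4:**
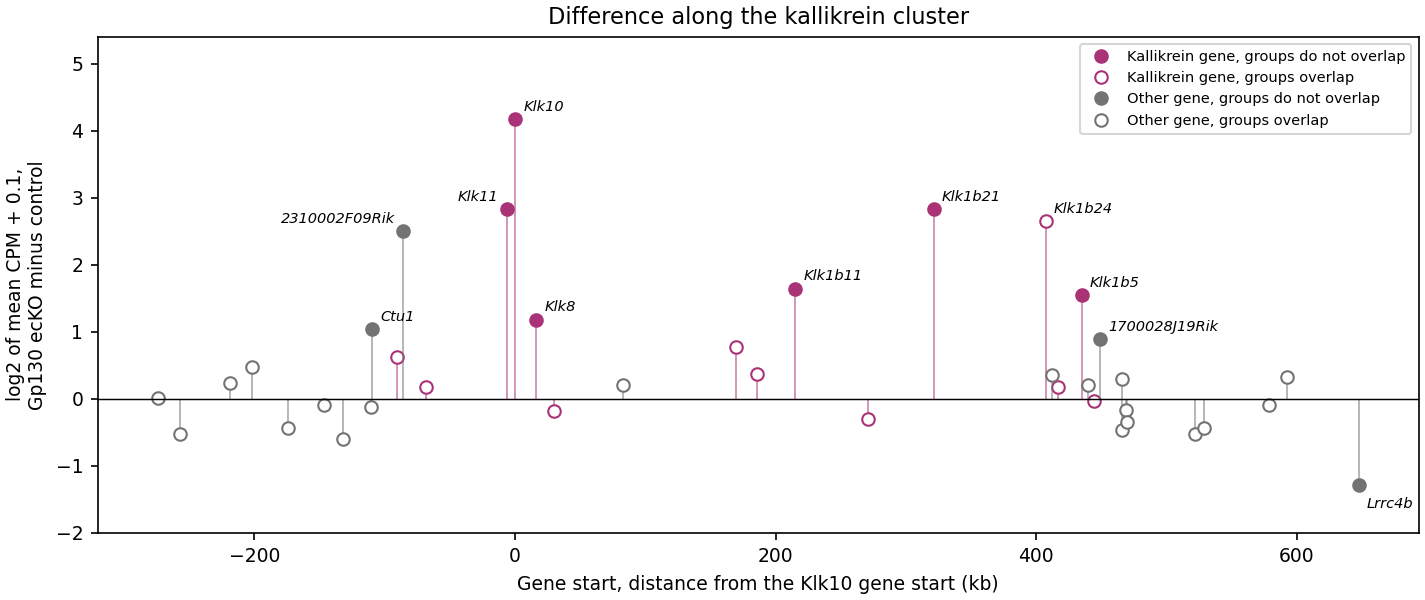
Difference of mean CPM, as log2 of CPM plus 0.1, *Gp130* ecKO minus control, against the distance of a gene's start from that of *Klk10* in kb. Genes with at least 1 count in some uterus are drawn, which leaves out *Klk9*. Filled points are genes whose groups do not overlap, purple for kallikreins and grey for others. *Klk10* stands highest at 4.17, with *Klk11* at 2.83 and *Klk8* at 1.18. The *Klk1b* genes with filled points had 0 counts in the controls, so their height depends on the 0.1 added and is no bound.

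Markers of the epithelium moved with these members. The summed CPM of 9 epithelial markers was 2200 to 3190 in the controls and 4470 to 6360 in *Gp130* ecKO, and that of 7 stromal markers 3880 to 4840 and 2100 to 2860. In bulk RNA more cells of a type and more RNA per cell cannot be told apart. The markers were not uniform, since *Krt8* had 477 and 1190 CPM while *Epcam* had 459 and 402 CPM in the controls and *Gp130* ecKO. In a ratio added after the values were seen, *Klk10* per 1000 CPM of the epithelial markers was 0.0253, 0.138 and 0.182 in the controls and 1.36, 0.972 and 1.82 in *Gp130* ecKO, a 12-fold ratio of means without overlap, and 8.64 to 16.9 with 1 uterus left out. For *Klk11* the same ratio was 0.152, 0.175 and 1.03 against 1.58, 1.68 and 1.67, a 3.62-fold ratio without overlap that rests on control 3, since without it the ratio was 10, and without any 1 of the other uteri 2.72 to 3.69. For *Klk8* it was 0.482, 0.675 and 0.394 against 0.706, 0.826 and 0.499, and the groups overlapped, with a ratio of 1.31. The summed markers themselves had a 1.83-fold ratio. Of the 9 markers, 4 were higher in *Gp130* ecKO without overlap and 0 lower. *Krt8* was among them, as were *Krt19*, with 192 and 880 CPM, and *Cdh1*, with 682 and 1080 CPM. The study also reports stronger KRT8 and CDH1 staining in the *Gp130* ecKO epithelium. These ratios thus depend on the markers summed. A ratio to markers without such a difference, such as *Epcam*, was not taken.

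Of 11 stratified squamous markers, the kind of epithelium best known for kallikreins, 4 were tested. Their summed level was 6.67 to 13 CPM in the controls and 11.7 to 17.3 CPM in *Gp130* ecKO. edgeR's quasi-likelihood test called 0, and 2 had an unadjusted p under 0.05 (against 25.0% over all tested genes). DESeq2 called 1 (against 9.29%). *Krt13* had 0.274 and 3.39 CPM (adjusted p = 0.0677, edgeR) and *Trp63* 0.824 and 2.23 CPM (adjusted p = 0.119, edgeR), while the basal keratin *Krt5* had at most 0.0386 CPM in any uterus. *Sprr1a* had 1.96 and 0.69 CPM, and *Krt6a* had 1.13 CPM in the controls, nearly all in control 3, and 0 counts in *Gp130* ecKO. Of 4 oviduct markers, all tested, edgeR's quasi-likelihood test called 1 (against 0.157% over all tested genes). This was *Ovgp1*, with 61.3 and 787 CPM. At an unadjusted p under 0.05 there were 2 higher and 1 lower (against 25.0%), and DESeq2 called 1 (against 9.29%). The ciliary markers of that list differed among themselves, with 0.395 and 1.82 CPM for *Foxj1*, 5.75 and 1.32 CPM for *Dnah5* and 1.16 and 0.446 CPM for *Tekt1*. The part of these cells in the kallikrein values was not tested.

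Of 10 genes for proteases that can cut kallikrein precursors 7 had enough RNA to be tested, and their median log2 fold change was 0.21, against −0.05 over all tested genes. The membrane protease *St14*, matriptase, had 331 and 341 CPM and *Prss8*, prostasin, 120 and 187 CPM in the controls and *Gp130* ecKO. edgeR's quasi-likelihood test called 0, and DESeq2 called 1 (against 9.29% over all tested genes). An unadjusted p under 0.05 was found for 2 (against 25.0%). These were *Plau*, urokinase, with 9.60 and 3.47 CPM (adjusted p = 0.102, edgeR), and *Tmprss4*, with 22.1 and 43.9 CPM (adjusted p = 0.197, edgeR). *Plg*, plasminogen, had 0 counts in all uteri, and the meprins *Mep1a* and *Mep1b* were too low to be tested.

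Of 23 inhibitors 11 were tested, with a median log2 fold change of −0.53. edgeR's quasi-likelihood test called 0, and 2 higher and 4 lower had an unadjusted p under 0.05 (against 25.0% over all tested genes). DESeq2 called 2 higher and 3 lower (against 9.29%). *Serping1*, the C1 inhibitor, which also blocks plasma kallikrein, had 272 and 73.4 CPM (adjusted p = 0.0548, edgeR). *Serpina1e*, of the antitrypsin family, had 331 and 1360 CPM (adjusted p = 0.101, edgeR). *Serpinb6b* had 14.5 and 7.05 CPM (adjusted p = 0.110, edgeR). *Spink5*, the inhibitor of kallikreins in skin, had 0.0527 and 0.149 CPM, and *Serpina5*, the protein C inhibitor, had 0 counts throughout.

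The receptors and substrates had mixed values. Of the 4 protease-activated receptors 3 were tested, and edgeR's quasi-likelihood test called 0. At an unadjusted p under 0.05 there was 1 (against 25.0% over all tested genes), and DESeq2 called 1 (against 9.29%). *F2rl1*, the receptor that kallikreins cleave best, had 46.6 and 46.1 CPM, and *F2rl3* had 3.15 and 1.26 CPM (adjusted p = 0.106, edgeR). Of 10 genes of the kinin system, on which *Klk1* acts, 6 were tested and had a median of −0.71. edgeR's quasi-likelihood test called 0, 3 had an unadjusted p under 0.05 (against 25.0%), and DESeq2 called 2 (against 9.29%). *Cpn1*, a subunit of a carboxypeptidase that trims kinins, had 0.349 and 4.17 CPM (adjusted p = 0.0677, edgeR), and the kininogen *Kng2* had 3.65 and 0.590 CPM (adjusted p = 0.151, edgeR), of which 8.88 CPM in control 1 was the largest value.

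Of 15 known or proposed substrates 10 were tested, with a median log2 fold change of −0.61. At an unadjusted p under 0.05 there were 4 higher and 5 lower (against 25.0% over all tested genes). DESeq2 called 1 higher and 3 lower (against 9.29%). This list was chosen with earlier results of these data known. The desmosomal cadherin *Dsg2* was the 1 gene called by edgeR's quasi-likelihood test (against 0.157% over all tested genes). It had 70.4, 58.0 and 58.5 CPM in the controls against 177, 173 and 147 CPM in *Gp130* ecKO, and it rose by a log2 fold change of 1.41 with a standard error of 0.16 (adjusted p = 0.0429, edgeR). E-cadherin, *Cdh1*, had 682 and 1080 CPM (adjusted p = 0.136, edgeR). The urokinase receptor *Plaur* had 9.26 and 3.15 CPM (adjusted p = 0.0941, edgeR), and *Igfbp4*, an insulin-like growth factor binding protein, had 722 and 351 CPM (adjusted p = 0.103, edgeR).

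Of 13 other serine proteases known from the uterus 11 were tested, with a median of −0.35. edgeR's quasi-likelihood test called 0, and 1 higher and 2 lower had an unadjusted p under 0.05 (against 25.0% over all tested genes). DESeq2 called 1 higher and 2 lower (against 9.29%). *Prss23* had 397 and 64.6 CPM (adjusted p = 0.0581, edgeR) and *Prss22* 16.2 and 1.36 CPM (adjusted p = 0.0804, edgeR), both lower in every *Gp130* ecKO uterus. *Tmprss11g* had 22.5 and 86.6 CPM (adjusted p = 0.149, edgeR), with 176 CPM in *Gp130* ecKO 3. The implantation serine proteases of the glands, *Prss28* and *Prss29*, followed single uteri. *Prss29* had 523, 1.7 and 23.7 CPM in controls 1 to 3, and in *Gp130* ecKO it had 6550, 84.9 and 48.9 CPM, where *Gp130* ecKO 1 did not stand out for *Klk10*.

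Over the 6 uteri, the likeness of 14764 other genes with a mean of at least 1 CPM to *Klk10* was measured by Pearson's r of log2(CPM + 0.5), and 4 of the nearest 5 are given. This is a description of 6 libraries in 2 groups, and any gene that separates the groups scores high. *Rnf19a* had r = 0.996, *Polr3f* 0.993, *Fer1l6* 0.993 and *Il20rb* 0.991. With a pseudocount of 1 in place of 0.5, *Fer1l6* came at rank 6 and *Il20rb* at rank 8, outside the nearest 5. *Fer1l6* was as scarce as *Klk10* in the controls, at 0.0405, 0.463 and 0.333 CPM, and had 6.33, 4.00 and 4.77 CPM in *Gp130* ecKO. *Il20rb*, a subunit of receptors of the interleukin 20 family, had a mean of 6.23 CPM in the controls and 30.1 CPM in *Gp130* ecKO. *Klk11* came at rank 195 with r = 0.944 and *Klk8* at rank 1987 with r = 0.775.

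**Figure D5:**
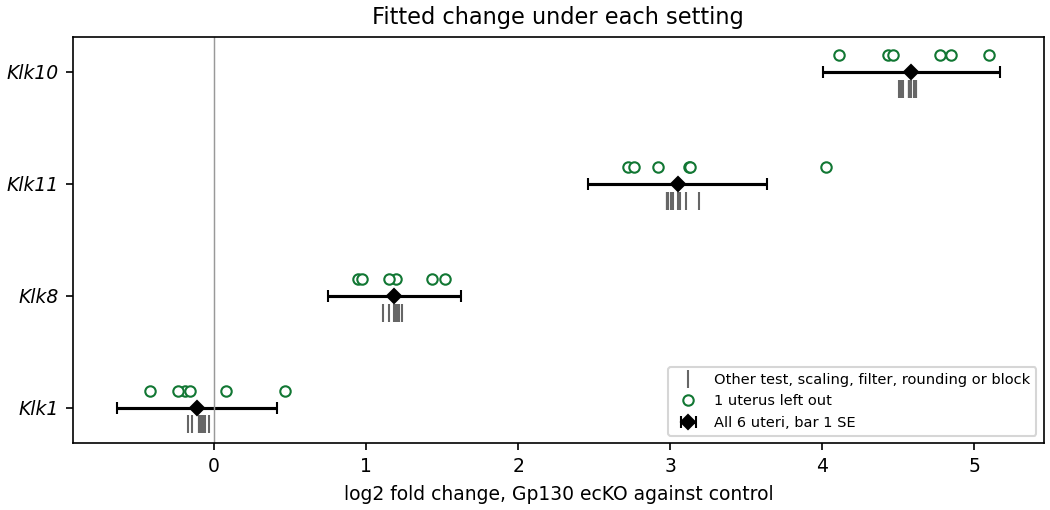
Log2 fold change of the 4 members that were fitted. The diamond with a bar of 1 SE is the value from all 6 uteri, open circles leave out 1 uterus, and ticks are other tests, scalings and filters. *Klk10* stays between 4.11 and 5.10, *Klk11* between 2.72 and 4.02 and *Klk8* between 0.94 and 1.52, and *Klk1* lies on both sides of 0.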

How the data were processed

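Poly(A) RNA of 6 whole uteri was read in single 75-base reads from libraries that keep the strand. The authors trimmed with fastp 0.23.2, removed ribosomal reads, mapped to GRCm39 with STAR 2.7.10a and estimated expected counts, TPM and FPKM per gene with RSEM 1.3.3, and deposited these 3 values for each uterus. The version of their annotation is not given in the sources used here. The deposited FPKM was not used. The deposited expected counts were rounded and fitted in R 4.3.3 with edgeR 4.0.16 (filterByExpr, TMM, quasi-likelihood F test, Benjamini-Hochberg over 16605 genes). Genes were called at an adjusted p under 0.05 and more than 2-fold, the thresholds of the study. Standard errors were derived from the F statistic. Where no uterus of a group exceeded 3 counts, a fold against it is a lower bound, taken at 3 counts per uterus.

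Names, coordinates and sequences came from GENCODE M39, which holds 56017 of the 56748 identifiers and is newer than the deposited tables. It gives *Klk10* 3332 bases, against 1373 in the tables. The members and gene lists were chosen with earlier results of these data known. Named besides the members were 2 to 4 genes per list by lowest p and the 5 genes most like *Klk10*, of which 1 is not reported here. Neighbours with an unadjusted p under 0.05 and genes named for their known role, such as *St14*, *Prss8*, *F2rl1* and *Spink5*, were added after their values were seen. Alternatives were other tests (DESeq2 1.42.0 among them), scalings and filters, counts without rounding, a block for the replicate number, and fits that omit 1 uterus. In a test on simulated data with the 16605 genes of this comparison, 119 of 200 genes changed by 4-fold were called, with 10 unchanged genes. The changed genes were drawn only from those above a minimum mean count, so this recovery does not cover scarcer genes.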

Additional observations from a re-analysis of the deposited data

How the results depend on the processing

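The log2 fold change of *Klk10* kept its direction under every alternative run and ranged from 4.50 to 4.62 over the other tests, scalings and filters. It did not pass the adjusted threshold with the legacy form of edgeR's quasi-likelihood test (4.57), upper quartile scaling (4.52), library totals alone (4.53) or a filter of at least 1 CPM in 3 uteri (4.57), and each of these called 0 members. With 1 uterus left out it was 4.11 to 5.10 and 0 to 1 members were called. DESeq2 and the exact and likelihood ratio tests of edgeR each called 2 members. Over all genes these tests called 1542, 1252 and 1317 in place of 26, the legacy form called 7, and a fit of all genes with at least 1 count called 105. Leaving out 1 uterus gave 1 to 897 called genes, the highest without control 2. The fold change of *Klk1* ran from −0.42 to 0.47 with 1 uterus left out and was above 0 without control 1 (0.47) and without *Gp130* ecKO 2 (0.08). The causes were not tested. For the genes most like *Klk10*, 3 of 5 were shared with a pseudocount of 1.

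With the replicate number as a block, 6 genes and 0 members were called and the value of *Klk10* was 4.50. The labels do not say that a number pairs uteri, and the deviations of same-numbered uteri correlated at 0.1037, 0.0691 and −0.1961, so the numbers were not taken as a pairing. Depth limits the members most in the controls, where *Klk10* rests on 2 to 11 counts. Counts of 0 allow up to 3 counts per uterus, and counts of near-identical *Klk1b* genes depend on how RSEM divided shared reads.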
